A study of Arabidopsis thaliana with 8 samples.

Results

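Of the peaks called in ChIP-seq of CONSTANS in *SUC2::CO:CIT* seedlings, a large minority were called in a single library. One-replicate peaks were defined as the peaks of 1 ChIP library on chromosomes 1 to 5 that overlap no peak of the other ChIP library by 1 bp or more, and the remaining peaks were called shared. There were 4193 one-replicate peaks among the 21054 peaks of replicate 1, or 19.9% of that list, and 5871 among the 22724 peaks of replicate 2, or 25.8%. Together these made 10064 of the 43778 *SUC2::CO:CIT* peaks, and of the 44204 peaks in the 4 libraries of the series. The 16861 shared peaks of replicate 1 and the 16853 of replicate 2 served for comparison. They are largely the same regions seen in each library, so that the comparisons made in the replicates are not independent. Membership was chosen by the peak calls themselves, and therefore strength, width and distance to the other list, which decide whether an overlap is found, are given as descriptions without a test. Read coverage was not analysed, so that the fragments of the other library at a one-replicate peak are not known.

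CONSTANS fused to the fluorescent protein CITRINE was expressed from the *SUC2* promoter, which is active in phloem companion cells, in 1 transgenic line (#5) of the Col-0 accession. The genotypes were *SUC2::CO:CIT aba1-6*, which carries the same transgene with a mutant allele of *ABA1*, the zeaxanthin epoxidase gene of abscisic acid (ABA) synthesis, and *SUC2::CO:CIT* with the wild-type allele. Whole seedlings were grown in long days and harvested at ZT12, and chromatin from 5 g fresh weight per replicate was precipitated with GFP-Trap nanobodies, which bind the tag, with 2 biological replicates per genotype and an input for each. Companion cells are a minor part of such tissue. A ChIP from plants without the transgene was not analysed here, so that fragments bound without the fusion protein cannot be told apart from those bound through it.

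CONSTANS (CO) is a zinc finger protein of the photoperiod pathway that stabilises at the end of long days and activates *FT*, whose product moves through the phloem to the shoot apex. Through its CCT domain it joins NF-YB and NF-YC proteins, and this assembly recognises short elements with the core word TGTG. A peak is called where the sequenced fragments pass a threshold over the background, separately in each library.

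The 2 *SUC2::CO:CIT* libraries had nearly the same depth. The genome background recovered from the deposited values was 11.2 fragments in replicate 1 and 10.8 in replicate 2, and the fewest fragments at a called summit were 23 and 22. The *SUC2::CO:CIT aba1-6* libraries, with a background of 3.57 and 0.774 fragments, held only 168 and 258 peaks. The lowest −log10 q among these peaks was 0.476 and 0.715, against 1.88 and 1.91 in the *SUC2::CO:CIT* lists, so that the lists differ in stringency.

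The sequences at the summits of strong one-replicate peaks are printed first, because base composition, which played no part in the selection, differed between one-replicate and shared peaks in each library. They are the 3 strongest one-replicate peaks of replicate 1 and 3 of the 4 strongest of replicate 2, leaving out a window with more than 30 bases of untranslated region. Each window, of equal length, is from the forward strand of TAIR10.1 (RefSeq) and is centred on the summit, with TGTG or its reverse complement CACA in capitals.
Replicate 1, chr5:21974825-21974925: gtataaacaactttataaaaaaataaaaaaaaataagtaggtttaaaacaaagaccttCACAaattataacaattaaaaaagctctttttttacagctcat
Replicate 1, chr1:26179556-26179656: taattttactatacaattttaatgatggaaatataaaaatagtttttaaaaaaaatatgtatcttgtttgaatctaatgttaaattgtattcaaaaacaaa
Replicate 1, chr2:6897302-6897402: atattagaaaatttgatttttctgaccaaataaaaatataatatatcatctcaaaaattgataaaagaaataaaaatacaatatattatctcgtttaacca
Replicate 2, chr4:2810049-2810149: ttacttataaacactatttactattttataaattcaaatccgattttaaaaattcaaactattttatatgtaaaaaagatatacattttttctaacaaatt
Replicate 2, chr1:17357132-17357232: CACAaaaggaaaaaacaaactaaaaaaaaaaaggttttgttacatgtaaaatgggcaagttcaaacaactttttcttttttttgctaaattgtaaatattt
Replicate 2, chr3:21299899-21299999: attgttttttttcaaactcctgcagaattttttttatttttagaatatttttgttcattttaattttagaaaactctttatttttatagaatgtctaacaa
These windows had a GC content of 14.9% to 22.8%, and 2 of the 6 held the word. All lay below the mean of one-replicate peaks over 100 bp, 23.4%, which was above the 19.9% of shared peaks. Chosen for strength, these windows do not illustrate the difference between the classes. A run of at least 8 A bases, or of at least 8 T bases, was present in 4 of the windows.

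For comparison, the summit windows of one-replicate peaks at genes of flowering, of the NF-Y partners of CO, of ABA and of the phloem are shown beside that of the shared peak in the *FT* promoter. For each list of genes the strongest peak at a gene with no shared peak was taken under the same limit on untranslated sequence, and *GI* was added after its values had been seen, for the overlap with an *aba1-6* peak described further on.
AP1, replicate 2, chr1:25986907-25987007: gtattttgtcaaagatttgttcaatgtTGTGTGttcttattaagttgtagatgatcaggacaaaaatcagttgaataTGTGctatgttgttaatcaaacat
GI, replicate 2, chr1:8061447-8061547: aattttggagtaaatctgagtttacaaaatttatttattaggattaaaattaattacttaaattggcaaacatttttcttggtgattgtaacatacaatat
NF-YA4, replicate 1, chr2:14652217-14652317: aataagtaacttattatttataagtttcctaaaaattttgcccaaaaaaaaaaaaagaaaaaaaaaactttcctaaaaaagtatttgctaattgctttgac
ABF4, replicate 2, chr3:6686748-6686848: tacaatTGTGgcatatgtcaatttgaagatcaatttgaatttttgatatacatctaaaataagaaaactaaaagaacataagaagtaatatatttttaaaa
APL, replicate 2, chr1:29879775-29879875: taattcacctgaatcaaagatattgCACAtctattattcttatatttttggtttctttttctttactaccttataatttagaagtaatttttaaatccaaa
FT, shared peak, replicate 1, chr1:24330863-24330963: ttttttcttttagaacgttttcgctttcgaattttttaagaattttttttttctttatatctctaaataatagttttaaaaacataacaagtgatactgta
The *AP1* window had the highest GC content of these, 28.7%, and 3 occurrences of the word, of which 2 overlap. The *FT* window, centred 460 bp upstream of the annotated start, had a GC content of 19.8% and no TGTG or CACA. The TGTG elements of the proximal promoter, which the paper places closer to the start codon, lie outside this window.

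One-replicate peaks were weaker and narrower than shared peaks, but they were not confined to the lowest calls. The median summit had 32 fragments in the one-replicate peaks of each replicate, against 39 in the shared peaks of replicate 1 and 38 in those of replicate 2. The fold enrichment that macs2 gave for the summit over its local background had a median of 2.71 in replicate 1 and 2.70 in replicate 2, against 3.28 and 3.30 in shared peaks. The median −log10 p was 7.03 and 6.89, against 10.7 and 10.5 in shared peaks. Fragments at the summit reached 67 and 58 in one-replicate peaks, more than in most shared peaks. A −log10 q of at least 5 was reached by 2365 one-replicate peaks of replicate 1 and 3371 of replicate 2, which were 14.2% and 18.8% of all peaks at that threshold.

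The share of peaks found in 1 replicate fell steadily with strength. Among peaks with a −log10 p below 5 it was 51.7% in replicate 1 (95% Wilson interval, 48.7% to 54.7%) and 59.1% in replicate 2 (56.3% to 61.8%). Among peaks with a −log10 p of 15 or more it was 1.31% (1.00% to 1.71%) and 1.73% (1.38% to 2.17%). These intervals and those below cover counting error over peaks only. In each of the 5 bins of −log10 p the share was higher in replicate 2, the longer list. The plot of shares by strength and by GC content shows these bins.

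**Figure D1:**
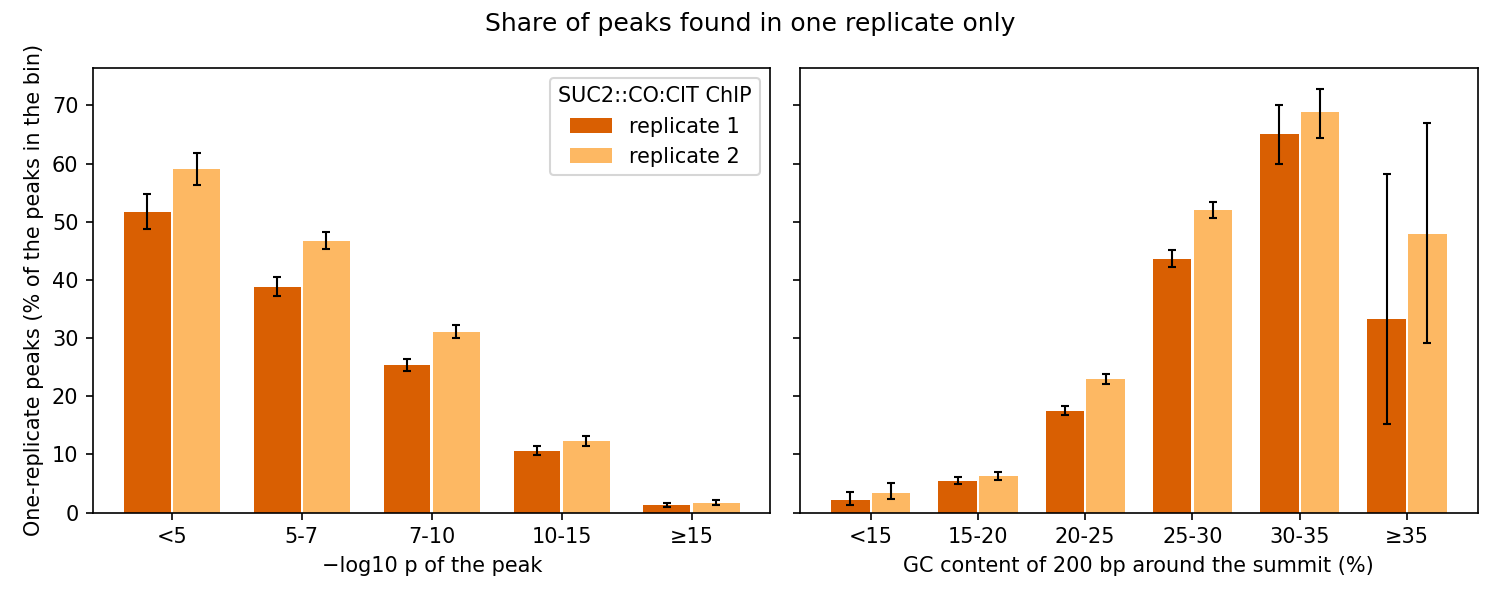
Share of the peaks of each *SUC2::CO:CIT* library that overlap no peak of the other library, in percent, by −log10 p (left) and by GC content over 200 bp at the summit (right), with 95% Wilson intervals. The share was 51.7% and 59.1% in the weakest bin and 1.31% and 1.73% in the strongest, and it was 2.2% and 3.43% below 15% GC and 65.2% and 68.8% at 30 to 35% GC.

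The median width was 220 bp in one-replicate peaks of replicate 1, against 339 bp in shared peaks, and 224 bp in those of replicate 2, against 352 bp. The smallest width in either list was 170 bp. It was the width of 10.7% of the one-replicate peaks of replicate 1 and 11.2% of those of replicate 2, against 2.42% and 2.17% of shared peaks. Of the peaks at least 800 bp wide, 1 of 1368 in replicate 1 and 11 of 1502 in replicate 2 were one-replicate peaks. Width enters the overlap itself and moves with strength, and it was therefore also read with weights over the bins of −log10 p. With shared peaks weighted to the −log10 p of one-replicate peaks, the mean difference in median width over the libraries was -60.5 bp, against -123.5 bp without weights.

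The GC content around the summit was higher in one-replicate peaks. Over the 200 bp around the summit it averaged 24.7% ± 3.28 in replicate 1 (SD, n = 4193), against 21.1% ± 3.65 in shared peaks (n = 16861). In replicate 2 it averaged 24.8% ± 3.27 (n = 5871), against 21.1% ± 3.66 in shared peaks (n = 16853). The difference was 3.60 percentage points in replicate 1 and 3.63 in replicate 2, averaging 3.61 ± 0.0234 (SD, n = 2 libraries; exact test by sign flips, two-sided p = 0.5, the lowest value open to 2 libraries). Peaks are not replicates. Both classes lay far below the 36.0% of the genome, and the distributions overlapped widely.

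**Figure D2:**
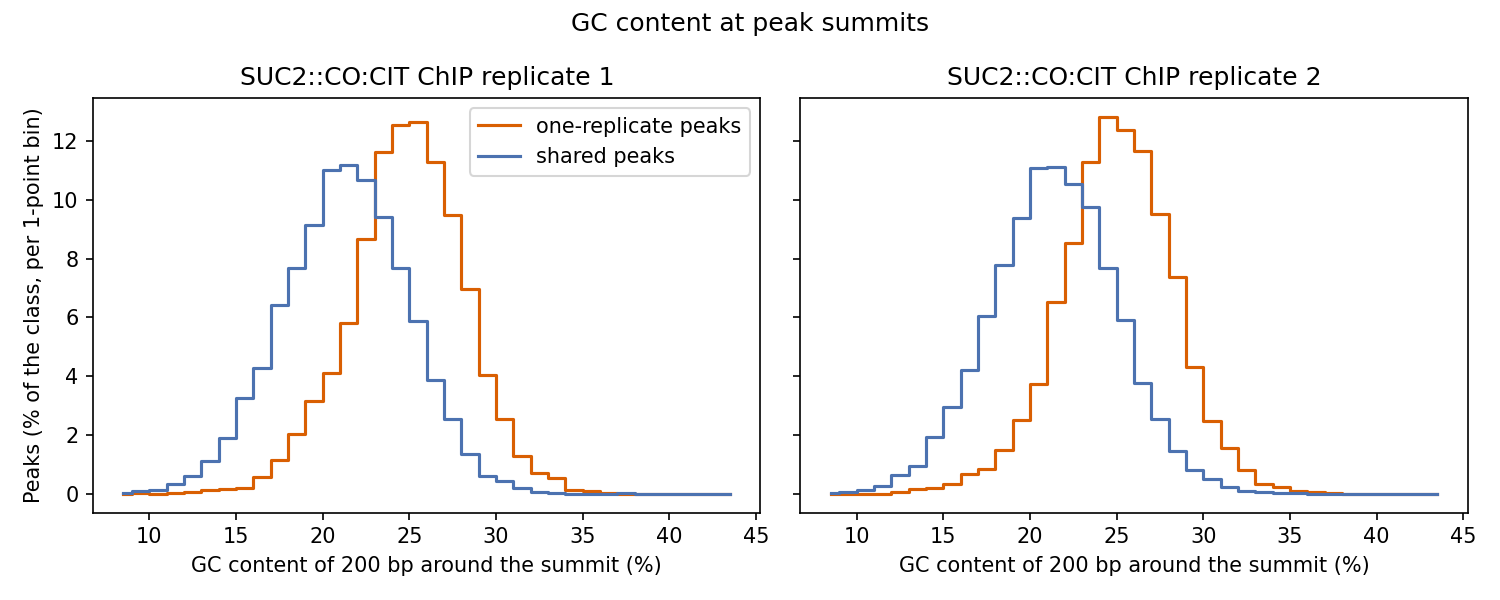
Distribution of GC content over 200 bp at the summit, as the percent of each class of peaks per bin of 1 percentage point, for one-replicate and shared peaks of each *SUC2::CO:CIT* library. One-replicate peaks averaged 24.7% and 24.8%, and shared peaks averaged 21.1% in each library, of which 6 in each library lie beyond the right end of the axis.

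Read the other way, the share of one-replicate peaks depended steeply on GC content. Between 15 and 20% GC it was 5.41% in replicate 1 and 6.27% in replicate 2. Between 25 and 30% GC it was 43.7% and 52.1%. At 35% GC or more the lists held only 15 and 23 peaks, of which 5 and 11 were one-replicate peaks. The shared peaks of this last bin included the lists' peaks of highest GC content, up to 63.0% in replicate 1 and 68.5% in replicate 2.

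Strength and GC content were related, since stronger peaks of either class had a lower GC content. The GC difference was nevertheless present within bins of −log10 p. One-replicate peaks had the higher mean in each of the 10 bins of −log10 p, 5 in each library, by 1.79 to 2.75 percentage points. In the strongest bin the mean was 21.2% ± 3.28 in the 53 one-replicate peaks of replicate 1, against 18.4% ± 3.35 in 4001 shared peaks. That bin has no upper limit. Its −log10 p reached 29.9 in one-replicate peaks and 383 in shared peaks, so that strength was not alike within it. With shared peaks weighted over the same bins to the −log10 p of one-replicate peaks, the mean difference over both libraries was 2.00 percentage points. One-replicate peaks were also higher on each of the 5 chromosomes in each library, by 3.53 to 3.8 percentage points.

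**Figure D3:**
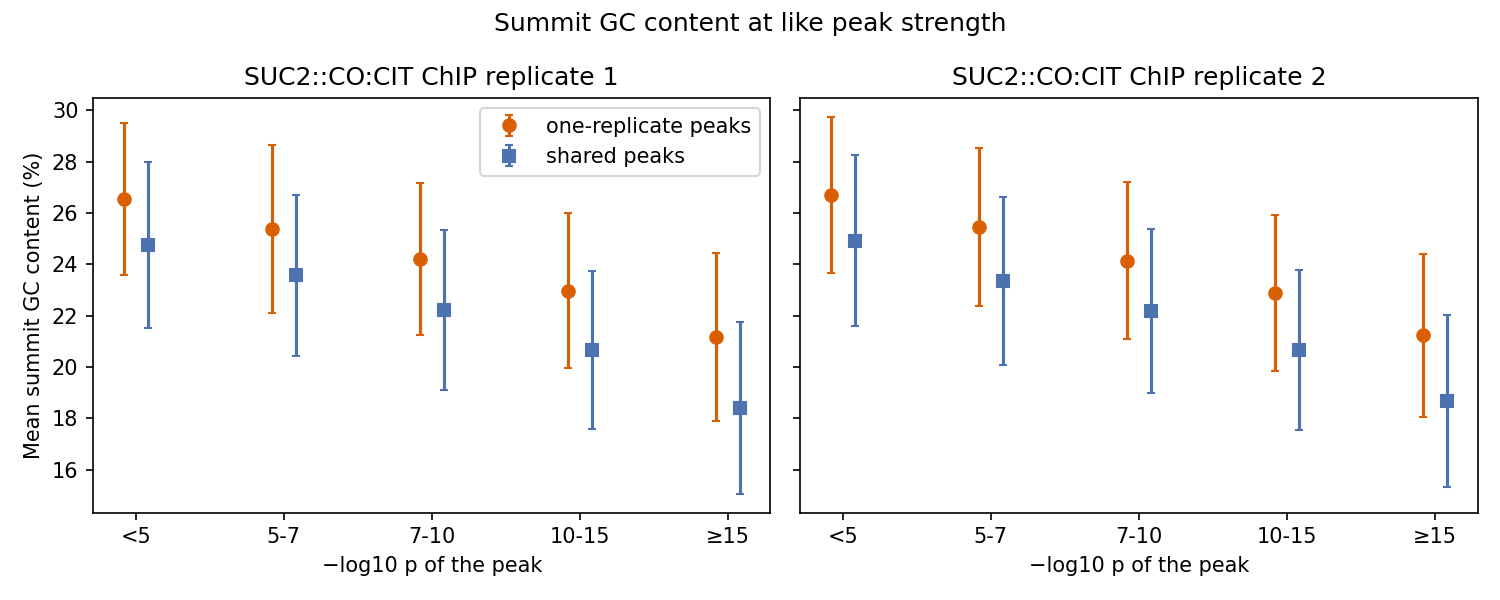
Mean GC content over 200 bp at the summit (percent, bars show the SD over peaks) for one-replicate and shared peaks in bins of −log10 p, in each *SUC2::CO:CIT* library. One-replicate peaks lie above shared peaks in all 10 bins, by 1.79 to 2.75 percentage points, within SDs that overlap.

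The CO core word was more frequent in one-replicate peaks, though hardly so at like GC content. TGTG or CACA, the core of the CO-responsive elements, was present within 100 bp centred on the summit in 39.5% of one-replicate peaks of replicate 1, against 33.9% of shared peaks, and in 40.0% of those of replicate 2, against 33.8%. The word was found in 50.2% of all genome windows of that length, more often than in either class. The mean difference was 5.90 ± 0.384 percentage points (SD, n = 2 libraries; exact test by sign flips, two-sided p = 0.5). Among peaks of 20 to 25% GC the word was present in 36.1% of one-replicate peaks, against 35.5% of shared peaks, in replicate 1, and in 36.6%, against 35.3%, in replicate 2. With shared peaks weighted to the GC content of one-replicate peaks the difference was 0.899 percentage points.

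The other words, searched on both strands, were given as descriptions. CCAAT, the element of the complete NF-Y trimer, was present in 15.2% and 15.1% of one-replicate peaks of replicates 1 and 2, against 13.5% of shared peaks in each, and in 19.4% of genome windows. At 20 to 25% GC it was slightly more frequent in one-replicate peaks, with 13.9% against 13.6% of shared peaks in replicate 1 and 14.7% against 13.8% in replicate 2. At 25 to 30% GC it was slightly less frequent, with 15.8% against 16.4% of shared peaks in replicate 1 and 15.85% against 15.92% in replicate 2. ACGTG, the core of ABA-responsive elements, was present in 5.03% and 4.50%, against 2.78% and 2.77% of shared peaks, and in 6.57% of genome windows. At 20 to 25% GC the values were closer, 3.18% in each replicate, against 2.66% and 2.91% of shared peaks. The G-box CACGTG, which contains ACGTG, was found in 0.453% and 0.392% (19 and 23 peaks), against 0.202% and 0.297%, and in 1.09% of genome windows. At 25 to 30% GC it was less frequent in one-replicate peaks, with 0.590% against 0.665% in replicate 1 and 0.489% against 0.614% in replicate 2. At 20 to 25% GC the values were 0.279% against 0.130% in replicate 1 and 0.238% against 0.284% in replicate 2. Runs of 8 A or 8 T were present in 26.1% and 24.1%, against 28.3% and 27.6% of shared peaks, and in 6.73% of genome windows. At 20 to 25% GC these runs remained less frequent in one-replicate peaks, with 26.5% against 29.7% of shared peaks in replicate 1 and 24.1% against 29.0% in replicate 2. TATATATA was present in 3.77% and 4.07%, against 4.01% and 3.82%, so that its direction differed between the libraries. At 20 to 25% GC it was more frequent in one-replicate peaks of both, with 4.18% against 3.48% of shared peaks in replicate 1 and 4.96% against 3.28% in replicate 2.

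Over all peaks, promoter shares were much alike in the classes and distal and untranslated shares differed, but these relations changed with GC content. Each summit was given 1 category of the TAIR10.1 annotation, with promoters (within 1000 bp of a start site) taking precedence, then untranslated regions, exons and introns, then the 300 bp downstream of genes, and the rest counted as distal intergenic. Promoters held 56.2% of one-replicate peaks of replicate 1 (54.7% to 57.7%), against 56.0% of shared peaks (55.2% to 56.7%). In replicate 2 they held 57.2% (55.9% to 58.4%), against 56.1% (55.3% to 56.8%). The mean difference, 0.666 ± 0.606 percentage points (SD, n = 2 libraries), was about the size of the spread between libraries, and it was -0.0329 with protein-coding genes only, -0.375 with shared peaks weighted to the GC content of one-replicate peaks and 3.04 when peaks within 300 bp of each other counted as shared. At 15 to 20% GC promoters held 46.1% of the 297 one-replicate peaks of replicate 1, against 54.0% of shared peaks, and 49.0% of the 343 of replicate 2, against 53.9%. Promoters so defined make up 51% of the genome.

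Distal intergenic sequence held fewer one-replicate peaks, 29.7% in replicate 1, against 34.1% of shared peaks, and 30.0% in replicate 2, against 34.0%. The mean difference was -4.25 ± 0.282 percentage points (SD, n = 2 libraries; exact test by sign flips, two-sided p = 0.5), and it was -2.26 with shared peaks weighted to the GC content of one-replicate peaks. At 15 to 20% GC the direction was the opposite, with 41.4% of one-replicate peaks of replicate 1, against 38.2% of shared peaks, and 42.3% of those of replicate 2, against 37.7%. At 20 to 25% GC it was 28.2%, against 31.8%, in replicate 1 and 31.3%, against 31.9%, in replicate 2. Untranslated regions held more one-replicate peaks, with 3.91% of one-replicate peaks in replicate 1, against 1.83% of shared peaks, and 3.66% in replicate 2, against 1.88%. The difference of 1.93 ± 0.206 percentage points (SD, n = 2 libraries; exact test by sign flips, two-sided p = 0.5) was 1.12 after the same weighting, and at 15 to 20% GC the shares were 2.02%, against 0.790%, in replicate 1 and 0.583%, against 0.975%, in replicate 2. Introns held 4.48% and 4.02%, against 3.35% and 3.38%. Exons outside untranslated regions held 13 one-replicate peaks in each replicate, against 26 and 21 shared peaks, although they make up 15.1% of the genome.

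**Figure D4:**
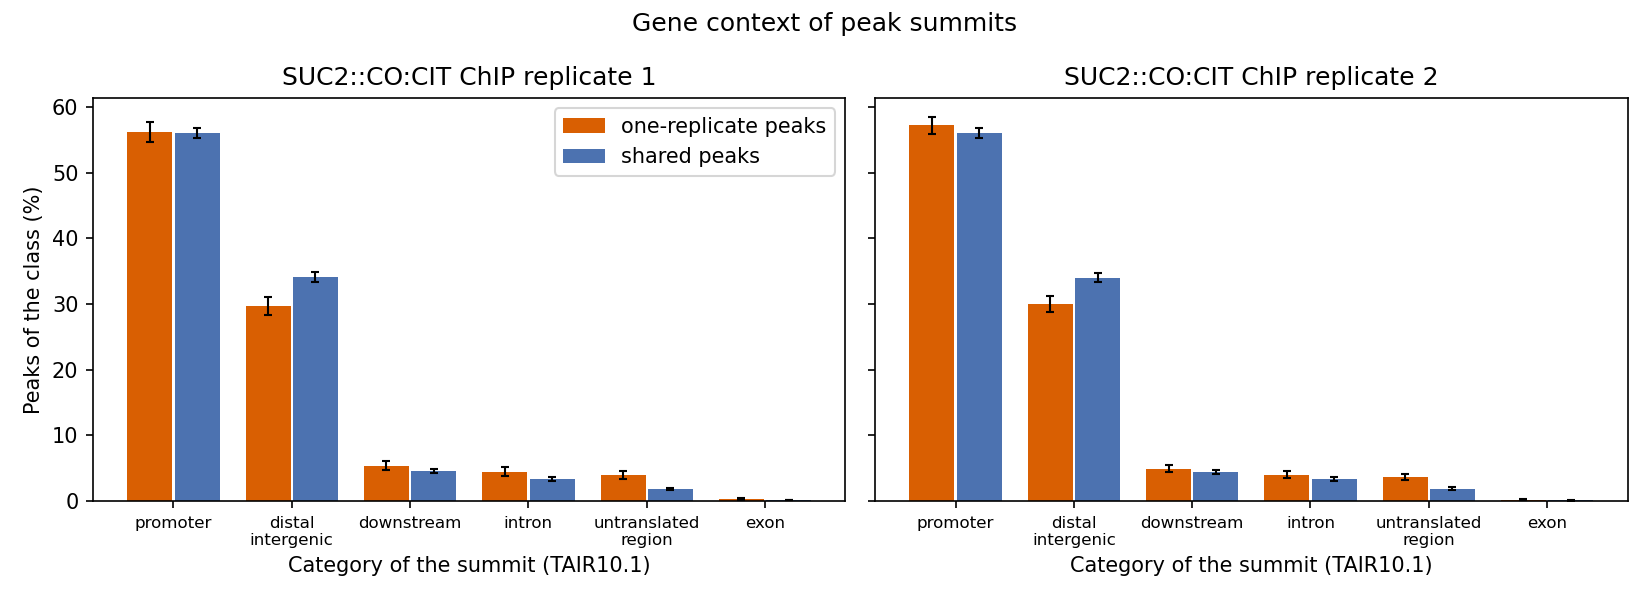
Percent of one-replicate and shared peaks of each *SUC2::CO:CIT* library whose summit lies in each category of the TAIR10.1 annotation, with 95% Wilson intervals. Promoters held 56.2% and 57.2% of one-replicate peaks, against 56.0% and 56.1% of shared peaks, whereas distal intergenic sequence held 29.7% and 30.0%, against 34.1% and 34.0%.

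The share of one-replicate peaks was higher in gene-rich sequence. The chromosomes were divided into bins of 100 kb, and the bins into 5 classes by their number of protein-coding genes. The share was 14.9% in replicate 1 and 20.1% in replicate 2 in the class with the fewest genes, and 23.6% and 30.3% in the class with the most. The GC content of both classes moved with it. One-replicate peaks averaged 24% in each replicate in the gene-poorest class and 25.1% and 25% in the gene-richest, and shared peaks averaged 20.2% and 20.3% in the gene-poorest and 21.6% and 21.8% in the gene-richest. Among peaks of 20 to 25% GC alone the share was 14.2% and 21% in the gene-poorest class and 19.1% and 25.4% in the gene-richest. The part of GC content in the remaining difference was not tested. Chromosomes themselves differed little, with shares from 18.9% to 20.5% in replicate 1 and from 24.3% to 27.3% in replicate 2.

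Most one-replicate peaks lay at some distance from any peak of the other library. The gap to the nearest peak of the other replicate had a median of 990 bp in replicate 1 and 1121 bp in replicate 2. It was at most 300 bp in 18.0% and 16.1% of one-replicate peaks, at most 1000 bp in 50.4% and 46.7%, and at most 5000 bp in 89.3% and 86.3%. The largest gaps were 34156 and 66131 bp. From summit to summit, the median distance to that peak was 1323 and 1447 bp, against 51 bp for shared peaks in each replicate.

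**Figure D5:**
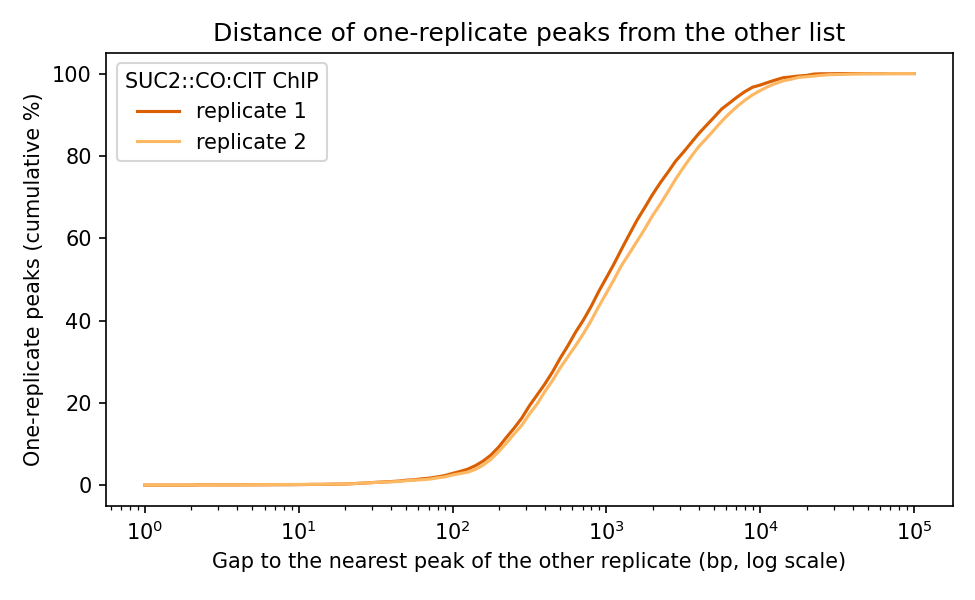
Cumulative percent of one-replicate peaks of each *SUC2::CO:CIT* library by the gap to the nearest peak of the other library (bp, log scale, with abutting peaks drawn at 1 bp). The curves reach 18.0% and 16.1% at 300 bp and 50.4% and 46.7% at 1000 bp.

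Near the boundary of the definition, peaks of the 2 lists touched without overlapping. At *SMT2*, a sterol methyltransferase gene, the replicate 1 peak (chr1:7040329-7040576, 27 fragments) began at the base after the end of the replicate 2 peak (chr1:7040103-7040328, 42 fragments), and both were one-replicate peaks. The same held at *AT3G15300*, with 29 fragments in replicate 1 and 24 in replicate 2. Just inside the shared class, peaks overlapped by 1 bp in an intron of *HMA4*, which encodes a zinc-transporting ATPase (30 and 40 fragments in replicates 1 and 2), and near the noncoding gene *AT5G05155* (36 and 29 fragments).

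The nearest peak of the other library was itself a one-replicate peak for 29.2% of the one-replicate peaks of replicate 1 and for 22.6% of those of replicate 2, against 25.8% and 19.9% of one-replicate peaks in the lists they were drawn from. Both classes are defined by overlap between the lists, so that these shares are not independent of the definition. Within their own list, one-replicate peaks lay farther from their neighbours, with a median gap of 1116 and 1050 bp, against 929 and 850 bp for shared peaks.

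The strongest one-replicate peaks stood among the upper calls of their lists. The 10 strongest of replicate 1 had 53 to 67 fragments and a fold enrichment of 4.43 to 5.58, and those of replicate 2 had 51 to 58 fragments and a fold enrichment of 4.39 to 4.99. In each replicate, 5 of the 10 had a peak of the other library within 500 bp, where 30.9% and 28.4% of all one-replicate peaks had one. The GC content ranged from 16.0% to 23.5% in the 10 of replicate 1 and from 16.5% to 26.0% in the 10 of replicate 2.

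The strongest of replicate 1, the first sequence shown above, ranked 307 of 21054 by −log10 p. It lay at chr5:21974720-21974999, in distal intergenic sequence 1040 bp from the start of the noncoding gene *AT5G08125*, and had a −log10 p of 29.9 at a fold enrichment of 5.58. The nearest replicate 2 peak was 168 bp away. The next in order lay 217 bp upstream of the long noncoding RNA gene *AT1G69587* (58 fragments) and 1688 bp from *AT2G00610* (57 fragments). The tRNA gene *AT5G20854* had one 157 bp upstream of its start (55 fragments), with a replicate 2 peak 165 bp away. Others lay at *AT1G44835*, *AT5G42440*, *BRG2* and *AT2G24693*. A peak also lay 978 bp from the start of *AT3G44006*, past the end of the gene, and another 4544 bp from the start of *CYCD3;1*, a D-type cyclin gene.

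The strongest of replicate 2 ranked 758 of 22724, at chr4:2809988-2810264, 1074 bp upstream of *AT4G05523*, and had a −log10 p of 23.7 at a fold enrichment of 4.99. A peak of 55 fragments lay 16 bp upstream of the start of *RLP19*, which encodes a receptor-like protein, and the nearest replicate 1 peak was 5320 bp away. A peak of 1037 bp, the widest one-replicate peak of replicate 2, lay in the promoter of *AT1G47340* (53 fragments). *CPK32*, a calcium-dependent protein kinase gene, had one 245 bp upstream (53 fragments) with a replicate 1 peak 220 bp away. A further peak lay 427 bp from the start of *AT1G45211* and another 3046 bp from that of *AT1G43765*, both past the end of the gene. The remaining peaks lay at *AT4G04404*, the cytochrome P450 gene *CYP708A3* and *AT3G43850*, and 2999 bp upstream of *SUP*, which encodes the floral zinc finger protein SUPERMAN.

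Genes were sorted by the classes of peaks they held. Of the 27444 protein-coding genes, 4113 (15%) had one-replicate peaks and no shared peak in the gene body or the 1000 bp upstream, 2106 (7.67%) had peaks of both classes, 7784 (28.4%) had shared peaks only and 13441 (49.0%) had none. A one-replicate peak of any kind was thus present at 6219 genes (22.7%). Among the 4113 genes, 1546 had peaks of replicate 1 alone, 2285 had peaks of replicate 2 alone, and 282 had a peak of each replicate at different places.

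The photoperiod and flowering list held 47 annotated genes, of which 13 (27.7%) had one-replicate peaks only, beside 15% of all protein-coding genes. A further 3 had peaks of both classes, so that 34.0% had a one-replicate peak, beside 22.7% of all protein-coding genes. Of the rest, 15 had shared peaks only and 16 had none. The genes with one-replicate peaks only included activators and integrators of flowering as well as repressors. No test was made of any list, and the lists were drawn up with results of these data known.

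Among the regulators upstream of CO, *GI*, which encodes a clock-associated protein that acts with FKF1 on the CDF repressors, had a replicate 2 peak 254 bp upstream of its start site (28 fragments, fold enrichment 2.45, −log10 q 3.98). *CDF3*, one of these DOF repressors, had a replicate 1 peak 382 bp upstream (35 fragments, −log10 q 6.71). *FBH1*, a bHLH activator of *CO*, had a replicate 2 peak 673 bp upstream (36 fragments, −log10 q 7.50). Of the clock genes, *ZTL*, a blue-light receptor with an F-box, had a replicate 1 peak 113 bp upstream (28 fragments), and *LUX*, of the evening complex, had one 21 bp past its start site (38 fragments).

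Among genes that act with or after CO, *TSF*, the closest relative of *FT*, had 2 replicate 1 peaks, with 36 fragments at 687 bp upstream and 26 fragments at 725 bp past the start site. *SOC1*, a MADS-box integrator of flowering signals, had a replicate 2 peak 191 bp upstream (28 fragments), 7668 bp from any replicate 1 peak. The floral identity gene *AP1* had a replicate 2 peak 608 bp upstream (37 fragments, −log10 q 7.99). *LFY* had 2 replicate 2 peaks inside the gene, 1622 and 2128 bp past its start site (28 and 31 fragments). The peaks at these genes were each called in a single library, so that none had a called counterpart in the other list at the same place. Whether the other library had fragments there below the threshold is not known.

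Of the repressors, *SVP*, a MADS-box gene, had a replicate 1 peak in an intron (33 fragments). *TEM1*, a repressor of *FT*, had a replicate 2 peak in an untranslated region (35 fragments), and the AP2-like gene *TOE2* had one 422 bp upstream (29 fragments). *TOE3*, of the same family, had a peak of each replicate, 357 bp upstream in replicate 1 (26 fragments) and 711 bp upstream in replicate 2 (36 fragments), with a gap of 215 bp. It was the one gene of these lists where peaks of both libraries lay upstream without overlap and no shared peak was present.

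*FT* itself had no one-replicate peak in the gene or the 1000 bp upstream. From 6000 bp upstream to 2000 bp downstream of the gene, replicate 1 had no one-replicate peak, and replicate 2 had 3, whose summits lay 4958, 3586 and 2677 bp upstream of the annotated start. Their −log10 q was 6.09, 2.10 and 3.60, with 33, 25 and 27 fragments, and the gaps to the nearest replicate 1 peak were 304, 1466 and 623 bp.

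Of the 33 NF-Y genes, which encode the subunits of the CCAAT-binding complex, 6 (18.2%) had one-replicate peaks only, beside 15% of all protein-coding genes, 14 had shared peaks only and 13 had none. No gene had peaks of both classes, so that 18.2% had a one-replicate peak of any kind, beside 22.7% of all protein-coding genes. *NF-YA4* had the strongest one-replicate peak of the list, a replicate 1 peak 558 bp upstream with 47 fragments (fold enrichment 3.94, −log10 p 15.5), and the nearest replicate 2 peak was 5607 bp away. The other 5 genes, *NF-YA2*, *NF-YB1*, *NF-YB3*, *NF-YB5* and *NF-YC9*, had replicate 2 peaks with 26 to 36 fragments. Those of *NF-YB3* and *NF-YC9* lay 972 and 1751 bp past the start site, near the end of the gene, and the others lay upstream.

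Of the 43 genes of ABA synthesis, breakdown and signalling, 6 (14%) had one-replicate peaks only, close to the 15% of all protein-coding genes. A further 10 had peaks of both classes, so that 37.2% of the list had a one-replicate peak, beside 22.7% of all protein-coding genes. Of the rest, 11 had shared peaks only and 16 had none. *ABA1*, the gene mutated in *aba1-6*, had a replicate 1 peak 75 bp upstream of its start site (32 fragments, −log10 q 5.37), 9509 bp from any replicate 2 peak. *NCED2* and *NCED5*, of the dioxygenase family that cleaves carotenoids in ABA synthesis, had replicate 2 peaks of 31 and 27 fragments. That of *NCED2* lay 470 bp upstream, and the summit of that of *NCED5* lay just past the end of the gene, 2060 bp from its start site. The receptor gene *PYL9* had 2 replicate 1 peaks, with 37 fragments 19 bp upstream and 25 fragments 1072 bp upstream. Of the bZIP factors, *ABF4* had a replicate 2 peak 720 bp wide (34 fragments) and *ABI5* had a replicate 1 peak 508 bp upstream (33 fragments).

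Of 12 genes on a list of phloem genes and sugar transporters, 3 (25%) had one-replicate peaks only, beside 15% of all protein-coding genes. A further 4, *AHA3*, *SUC5*, *NAKR1* and *SWEET11*, had peaks of both classes, so that 7 (58.3%) had a one-replicate peak, beside 22.7% of all protein-coding genes. *SUC1*, which encodes a sucrose transporter, had a replicate 2 peak 220 bp past its start site with 49 fragments (fold enrichment 4.23, −log10 p 17.3), the strongest at the genes of the 4 lists with one-replicate peaks only. *APL*, a MYB factor of phloem identity, had one 546 bp upstream (38 fragments). *PP2-A1*, a phloem lectin gene, had one of 38 fragments with its summit just past the end of the gene, 2149 bp from the start site.

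The *SUC2::CO:CIT aba1-6* lists, which did not enter the definition, were also searched. None of the 4193 one-replicate peaks of replicate 1 overlapped a peak of either *aba1-6* library, 0 of 4193, which allows a share of up to 0.0715%. Of the 5871 of replicate 2, 0 overlapped a peak of *aba1-6* replicate 1 and 1 overlapped a peak of *aba1-6* replicate 2, against 11 and 14 of the 16853 shared peaks. The shared peaks of replicate 1 overlapped 10 and 14. The shallow *aba1-6* libraries limit these counts, and a difference between the classes was not tested.

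The single overlap was the peak in the *GI* promoter. In *aba1-6* replicate 2 the peak at chr1:8061110-8061400 had 11 fragments, against 0.810 in the local background, with a −log10 q of 5.79. In *SUC2::CO:CIT* replicate 2 the peak at chr1:8061276-8061593 had 28 fragments, with a −log10 q of 3.98. The peaks overlapped by 125 bp, and no peak overlapped that of *SUC2::CO:CIT* replicate 2 in the other libraries. This peak was singled out after its values had been seen.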

How the data were processed

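ChIP libraries of *SUC2::CO:CIT aba1-6* and *SUC2::CO:CIT* seedlings (2 replicates each) were grouped by their labels. The authors used fastp for trimming, Bowtie2 for mapping (TAIR10.1) and macs2 for peak calling, for each replicate separately against input. Tool versions are not given in the sources used here. The lists precede the authors' IDR and greenscreen filters, so that regions of artefactual signal may remain.

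The deposited fold enrichment is a ratio, (summit fragments + 1) over (local background + 1), which lowers the fold at weak summits. The −log10 p-values and q-values deposited by the authors are those of macs2. The deposited score, 10 times −log10 p cut to a whole number, was not used. The deposited summit offset gave the summit position. The read totals behind the lists were not used, and depth was expressed as the background fragments. Fragments at the summit were recovered as the whole number that, with a Poisson background, gives both the deposited fold enrichment and −log10 p within 0.01. This failed for 3 peaks in each *SUC2::CO:CIT* list, all shared.

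Overlap, GC content, words and categories were computed in Python 3.11.15 (numpy 2.4.6, pandas 2.3.3, scipy 1.17.1, matplotlib 3.10.9), with overlap and fragment recovery tested on simulated data. Differences between one-replicate and shared peaks were taken within each library and tested by exact sign flips over 2 libraries. Named peaks were the 10 strongest one-replicate peaks of each replicate, the 2 smallest gaps and 2 smallest overlaps, and genes of 4 lists with one-replicate peaks only. The members and lists were chosen with earlier results of these data known. Of 49 flowering names 47 matched the annotation, and of 13 phloem names 12. Alternatives covered the overlap, the peak threshold, strength, GC content, windows and gene models.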

Additional observations from a re-analysis of the deposited data

How the results depend on the processing

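Differences below are one-replicate minus shared peaks, as the mean of both libraries. The number of one-replicate peaks per list averaged 5032 and lay between 4193 and 5871 in the single lists. It was 2868 when members needed a −log10 q of at least 5 and were set against the full other list, and was within 1.5 times of the main value under the other alternatives. The signs of the GC, distal intergenic, untranslated region and TGTG differences held under each of these alternatives (at 15 to 20% GC alone the distal sign, and in replicate 2 the untranslated one, did not), with GC between 2.00 and 3.67 percentage points and TGTG between 0.899 and 8.20. The promoter difference turned to -0.375 percentage points with shared peaks weighted to the GC content of one-replicate peaks and to -0.0329 with protein-coding genes only, and was 3.04 when gaps of up to 300 bp counted as shared. The distal difference of -4.25 was -7.68 under that tolerance and -6.80 with promoters of 500 bp on either side of the start, where the untranslated difference of 1.93 was 3.20. Weighting to GC content brought these differences to -2.26 and 1.12. The median gap averaged 1055.5 bp. It was 933 bp with an overlap of at least 50% of the shorter peak required, 1413 bp when gaps of up to 300 bp counted as shared, 1433 bp with a −log10 q of at least 5 in both lists, and 1385 bp from summit to summit. The width difference of -123.5 bp became -116.5 bp, -143.5 bp and -148 bp under the gap tolerance, the threshold in both lists and the threshold for members only, and -60.5 bp and -86.5 bp with weights for −log10 p and GC content. Overlaps with *aba1-6* peaks, 0.5 per list on average, were 0 and 1 in the single lists and 0 with the threshold for members only. The alternatives for untranslated regions and *aba1-6* overlaps were chosen after seeing the data. The cause of these shifts was not tested. The main comparison is paired within each library. With no replicate block the GC difference is 3.61 percentage points by construction. An exact permutation of the 4 library values gave a two-sided p = 0.333, the smallest possible. Neither test can reach a low p-value with so few libraries, so that this alternative is no check of the difference. Peaks near the lowest 22 and 23 fragments are the least certain.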
